A study of Mus musculus with 32 samples.

Results

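FX11, a small-molecule inhibitor of lactate dehydrogenase A (LDHA), was added to chondrocytes that were also given the inflammatory cytokine IL-1β, and the transcripts of these cultures were compared with those of cultures given IL-1β alone. The members are 5 of the 32 libraries of the series, chosen by their labels as wild type with IL-1β (IL-1b in the labels), with IL-1β plus FX11, or, in the second library set, with FX11. The cells were primary chondrocytes from the sterna of wild-type pups, cultured without passaging in normoxia. The study's methods name both sterna and ribs as the source of its mouse chondrocytes. IL-1β was used at 10 ng/mL and FX11 at 40 µM for 24 h. The 8 wild-type libraries received no virus and form 2 sets, each with 1 untreated, 1 FX11, 1 IL-1β and 1 IL-1β plus FX11 library, while the other 24 come from chondrocytes floxed for Nfkbiz, Nampt or Ldha (f/f), which received adenovirus expressing GFP or Cre, without or with IL-1β. In the floxed cultures the gene is lost only in cells that the Cre virus reached, and the GFP cultures carry a virus as well. The sources used here do not say how many animals a culture pooled. RNA was depleted of ribosomal RNA, and the deposited gene counts of the wild-type libraries summed to between 23489683 and 39092817.

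LDHA converts pyruvate to lactate and restores NAD at the end of glycolysis. IL-1β acts on chondrocytes through NF-κB and raises matrix-degrading proteases, chemokines, cytokines and acute-phase proteins, while the cartilage matrix genes decline. IκB-ζ, the product of Nfkbiz, is an inducible nuclear partner of NF-κB that is needed for a subset of these genes, among them Il6. NRF2 is the transcription factor that raises heme oxygenase and glutathione enzymes when cells meet oxidants or electrophiles.

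The label of a set 2 library runs against its values, so the set 2 comparison is given in 2 readings. Mmp3, the protease stromelysin, stood at 8784 CPM in the set 1 IL-1β library and at 1.02 CPM in the untreated one. In set 2 it stood at 0.751 CPM in the library labelled IL-1β, at 1964 CPM in the library labelled FX11 and at 0.769 CPM in the untreated library. Saa3, an acute-phase protein, followed the same order, with 6371 CPM with IL-1β in set 1, 0.608 CPM in the set 2 library labelled IL-1β and 4201 CPM in the one labelled FX11. Whether the labels of these libraries were exchanged cannot be told from the labels. As labelled, the set 2 library with IL-1β plus FX11 was set against the library labelled IL-1β, and in the exchanged reading it was set against the library labelled FX11. CPM here are gene counts scaled to the size of the library with TMM factors, and a ratio is the log2 of (CPM + 0.5) in the IL-1β plus FX11 library over that in its partner, which understates the change of low genes. Each ratio compares 1 library with 1 library, so none has a replicate check, no p-value was computed for a ratio, and every statement about a pair is about those libraries. The 95% counting intervals are exact, are those of the ratio without the pseudocount, and cover counting error only.

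Over the 15172 genes that exceeded 1 CPM in any of the 5 libraries, adding FX11 to IL-1β gave few large differences in set 1. There, 43 genes (0.283%) were at least 2-fold higher and 92 (0.606%) at least 2-fold lower with FX11. In set 2 the numbers were larger, with 618 higher (4.07%) and 409 lower (2.7%) as labelled, and 287 higher (1.89%) and 794 lower (5.23%) in the exchanged reading. The untreated libraries of the 2 sets, which differ in no labelled treatment, were more than 2-fold apart at 1648 genes, which is 10.9% of those tested. A gene was taken to agree where it passed 2-fold in the same direction in both sets. As labelled, 9 genes agreed as higher (0.0593%) and 10 as lower (0.0659%). In the exchanged reading 14 agreed as higher (0.0923%) and 50 as lower (0.33%). Under both readings at once, 9 were higher and 6 were lower (0.0395%), and 68 genes agreed under at least 1 reading. Both readings share the set 2 library with IL-1β plus FX11, so they are not independent of each other.

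**Figure D1:**
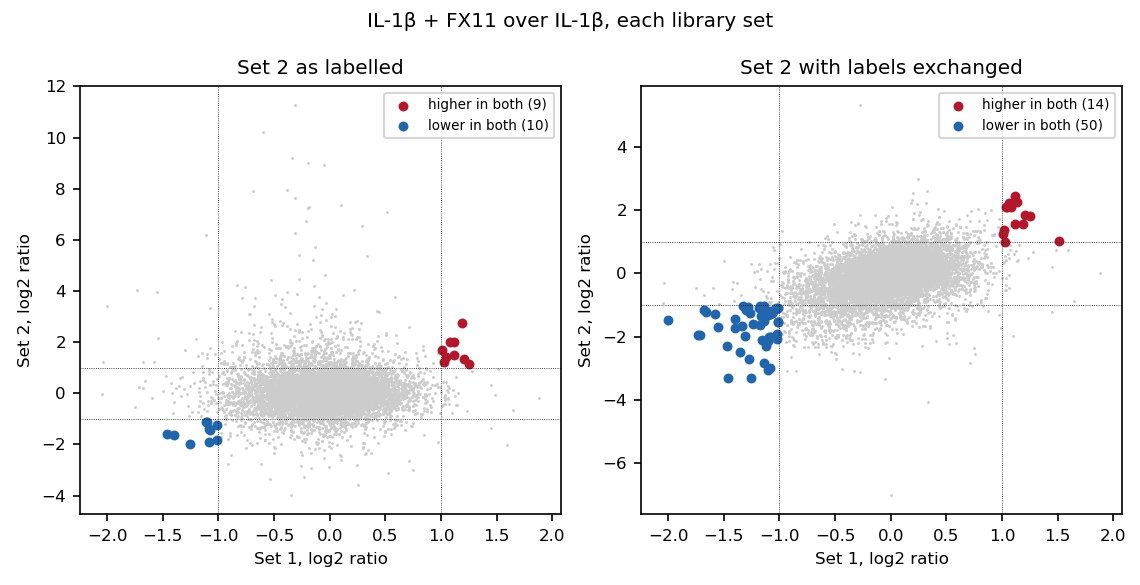
Log2 ratio of IL-1β + FX11 over IL-1β in set 1 (horizontal axis) and set 2 (vertical axis) for 15172 genes, with set 2 as labelled on the left and with the libraries labelled IL-1β and FX11 exchanged on the right. Each point is a gene, dotted lines mark 2-fold, and the coloured points are the 9 and 10 genes that agreed as higher and lower on the left and the 14 and 50 on the right.

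Of the genes that agreed as lower in the exchanged reading, the promoters of Il6 and Serpina3g (a serine protease inhibitor) held a letter match to the NF-κB motif, and those of Ifit1 and Cxcl14 were among 4 with a match to the interferon response motif. They are shown because Il6 and Ifit1 are among the genes the results turn on, each beside a second gene with the same motif. Each run is the 250 bases upstream of the start site in the RefSeq annotation of GRCm38.p6, printed 5′ to 3′ on the gene's strand in lower case, with the matches in capitals. The Il6 run lies at chr5:30012864-30013113, plus strand, that of Serpina3g at chr12:104235897-104236146, plus strand, that of Ifit1 at chr19:34640639-34640888, plus strand, and that of Cxcl14 at chr13:56296552-56296801, minus strand.
Il6: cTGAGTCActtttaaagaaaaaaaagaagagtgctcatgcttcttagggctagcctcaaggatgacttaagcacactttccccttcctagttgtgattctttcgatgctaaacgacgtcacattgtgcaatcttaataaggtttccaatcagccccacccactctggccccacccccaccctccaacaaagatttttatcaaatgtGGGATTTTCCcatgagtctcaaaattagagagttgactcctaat
Serpina3g: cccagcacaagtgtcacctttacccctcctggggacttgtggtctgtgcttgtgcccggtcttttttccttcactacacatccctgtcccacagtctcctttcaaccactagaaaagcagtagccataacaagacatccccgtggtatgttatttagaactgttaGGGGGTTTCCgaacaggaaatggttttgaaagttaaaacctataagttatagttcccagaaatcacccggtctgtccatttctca
Ifit1: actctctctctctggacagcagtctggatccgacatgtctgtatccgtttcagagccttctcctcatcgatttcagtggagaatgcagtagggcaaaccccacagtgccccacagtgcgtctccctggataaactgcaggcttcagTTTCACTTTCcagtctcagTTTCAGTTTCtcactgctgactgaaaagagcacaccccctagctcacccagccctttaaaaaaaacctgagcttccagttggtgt
Cxcl14: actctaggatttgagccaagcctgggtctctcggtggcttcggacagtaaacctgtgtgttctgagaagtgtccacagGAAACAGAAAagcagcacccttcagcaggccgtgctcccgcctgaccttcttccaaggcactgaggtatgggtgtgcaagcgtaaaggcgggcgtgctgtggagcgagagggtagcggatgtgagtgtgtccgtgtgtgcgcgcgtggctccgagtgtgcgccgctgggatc
The capitals mark the NF-κB motif (GGG and TTTCC with 2 bases of any kind between them) in Il6 and Serpina3g, the AP-1 motif TGAGTCA in Il6, and the interferon response motif (TTTC and TTTC with 2 bases of any kind between them) in Ifit1 and Cxcl14, the match in Cxcl14 is on the opposite strand, both strands were searched and the NF-κB and interferon response motifs can overlap by the letters TTTC. Of all 32851 promoters in the table, 1.41% held the NF-κB match, 4.46% the AP-1 match and 2.98% the interferon response match. Of the 36 genes lower in the exchanged reading that had an entry, 2 held the NF-κB match, 2 the AP-1 match and 4 the interferon response match, the others being Gfra1 and Clca3a1. A match to TGACNNNGC (N is any base), the core of the antioxidant response element, was in 10.2% of all promoters, in that of Adtrp among 10 higher genes with an entry, and in those of Oasl2, Myh8, Myl1 and Lrg1 among the lower ones. Hmox1 and Gsta4, described below, had no entry, so their promoters were not searched. A match describes letters and is not a measured binding site.

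A heme enzyme and a glutathione enzyme were among the 9 genes that were higher with FX11 under both readings. Hmox1 (ENSMUSG00000005413, chromosome 8, 75093591 to 75100596), which encodes heme oxygenase 1, stood at 346 CPM with IL-1β and 714 CPM with IL-1β plus FX11 in set 1. In set 2 it stood at 713 CPM in the library labelled IL-1β, 443 CPM in the one labelled FX11 and 1886 CPM with IL-1β plus FX11. In each set the library with both agents was above the libraries it was compared with, which follows from the choice of these 9 genes. The log2 ratio of Hmox1 was 1.04 (95% counting interval 1.01 to 1.07) in set 1, 1.4 (1.38 to 1.43) as labelled and 2.09 (2.06 to 2.12) in the exchanged reading. Gsta4 (ENSMUSG00000032348, chromosome 9, 78191966 to 78209348), a glutathione transferase that clears lipid peroxidation products, stood at 15.6 and 36.6 CPM in set 1, and at 6.65, 4.56 and 17.7 CPM in the set 2 libraries labelled IL-1β, FX11 and IL-1β plus FX11. Its log2 ratios were 1.21, 1.35 and 1.84. These transferases belong to a multigene family, so counts shared between near-identical copies are uncertain. With FX11 but no IL-1β in set 1, a pair that shares no library with the pairs above, the log2 ratio to untreated cells was 1.01 for Hmox1 and 1.06 for Gsta4, and Hmox1 reached 870.9 CPM there, above the 714 CPM with both agents.

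The list of NRF2 targets and glutathione genes leaned higher, and its counts include Hmox1 and Gsta4. Of its 35 genes tested, 24 were higher in both sets in the exchanged reading and 26 as labelled, where 30.2% and 24.9% of all genes were. At 1.5-fold, 8 were higher in both sets under each reading and none was lower, where 0.798% and 0.455% of all genes were higher. The median log2 ratio of the list was 0.40 in set 1, 0.93 as labelled and 0.54 in the exchanged reading, beside -0.002, -0.005 and -0.028 over all genes. Slc7a11, the cystine importer, had log2 ratios of 0.60, 1.95 and 0.87 in set 1, as labelled and exchanged. For Gclm, a subunit of the rate-limiting enzyme of glutathione synthesis, they were 0.50, 0.96 and 1.13, and for Sqstm1, the autophagy adaptor p62, 0.54, 0.93 and 1.29. Nqo1, a quinone reductase, had 0.57, 1.28 and -0.24, and Gsr, glutathione reductase, -0.20, 1.60 and -0.24, so in the exchanged reading Nqo1 differed in direction between the sets and Gsr was lower in both. With FX11 alone in set 1 the list's median was 0.26.

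Il12b and Cd40, immune genes, were also higher under both readings. Il12b (ENSMUSG00000004296, chromosome 11, 44400063 to 44414033), the p40 subunit of interleukins 12 and 23, stood at 29.7 and 68.3 CPM in set 1 and at 0.143, 0.964 and 3.79 CPM in the set 2 libraries labelled IL-1β, FX11 and IL-1β plus FX11. Its log2 ratio was 1.19 in set 1 and 1.55 in the exchanged reading (95% counting intervals 1.10 to 1.30 and 1.33 to 2.67), and the levels in the sets lie far apart. Cd40, a costimulatory receptor of the TNF receptor superfamily, stood at 1.30 and 3.32 CPM in set 1 and at 1.04, 0.927 and 5.66 CPM in the same order in set 2. Tenm2, a teneurin cell-surface protein, stood at 20.4 and 49.4 CPM in set 1 and at 24.8, 15.5 and 55.2 CPM in set 2, and its ratios were 1.25, 1.14 and 1.80. For each of these genes the library with both agents was above its partners in its set, which the rule that chose them requires. Mreg, melanoregulin, had ratios of 1.11, 1.99 and 2.44. The others were Adtrp, 1110046J04Rik and ENSMUSG00000060899, for which the files give no name, and the first 2 of these were under 3 CPM in all 5 libraries. The counting's strand setting is not given in the sources used here, and Tenm2, Adtrp and 1110046J04Rik overlap genes on the opposite strand, whose reads cannot be told apart from theirs.

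Secreted growth factors and a Wnt antagonist were among the 6 genes that were lower under both readings. Igf1 (ENSMUSG00000020053, chromosome 10, 87858265 to 87937042), the insulin-like growth factor that supports cartilage matrix synthesis, stood at 19.6 CPM with IL-1β and 7.10 CPM with IL-1β plus FX11 in set 1. In set 2 it stood at 34.2, 30.4 and 10.9 CPM in the libraries labelled IL-1β, FX11 and IL-1β plus FX11, and the ratios were -1.4 (95% counting interval -1.66 to -1.27), -1.61 and -1.44. Of the libraries compared, the one with both agents was lowest in each set, which follows from the choice of these 6 genes. The choice of partner in set 2 moved the ratio of Igf1 little. Sfrp2 (ENSMUSG00000027996, chromosome 3, 83766321 to 83774316), a secreted Wnt antagonist, stood at 43.7 and 15.6 CPM in set 1 and at 14.0, 47.6 and 4.30 CPM in set 2, with ratios of -1.46, -1.60 and -3.32. Ptn, the heparin-binding growth factor pleiotrophin, stood at 20.6 and 9.91 CPM in set 1 and at 26.8, 16.3 and 7.28 CPM in set 2. Igf1 and Sfrp2 also overlap a gene on the opposite strand.

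Ifit1 and Oasl2, interferon-stimulated antiviral genes, were low in set 1 and lower still with FX11. Ifit1 (ENSMUSG00000034459, chromosome 19, 34640871 to 34650009), whose promoter is printed above, had 35 counts with IL-1β and 4 with IL-1β plus FX11 in set 1, or 0.931 and 0.0976 CPM. In set 2 it had 51 counts in the library labelled IL-1β, 142 in the one labelled FX11 and 2 with IL-1β plus FX11, and the 95% counting intervals of the log2 ratio were -5.21 to -1.77, -7.50 to -2.49 and -9.01 to -4.07. Oasl2 had 25 and 2 counts in set 1 and 79, 178 and 9 in set 2. Of the 25 interferon-stimulated genes tested, 15 were lower in both sets in the exchanged reading and 8 as labelled, where 33.5% and 25.9% of all genes were, and 2 were higher in the exchanged reading. The median of the list was -0.07 in set 1, -0.10 as labelled and -1.0 in the exchanged reading, so the size of the set 2 value rests on the partner library. Fam184b, also lower under both readings, overlaps a gene on the opposite strand.

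**Figure D2:**
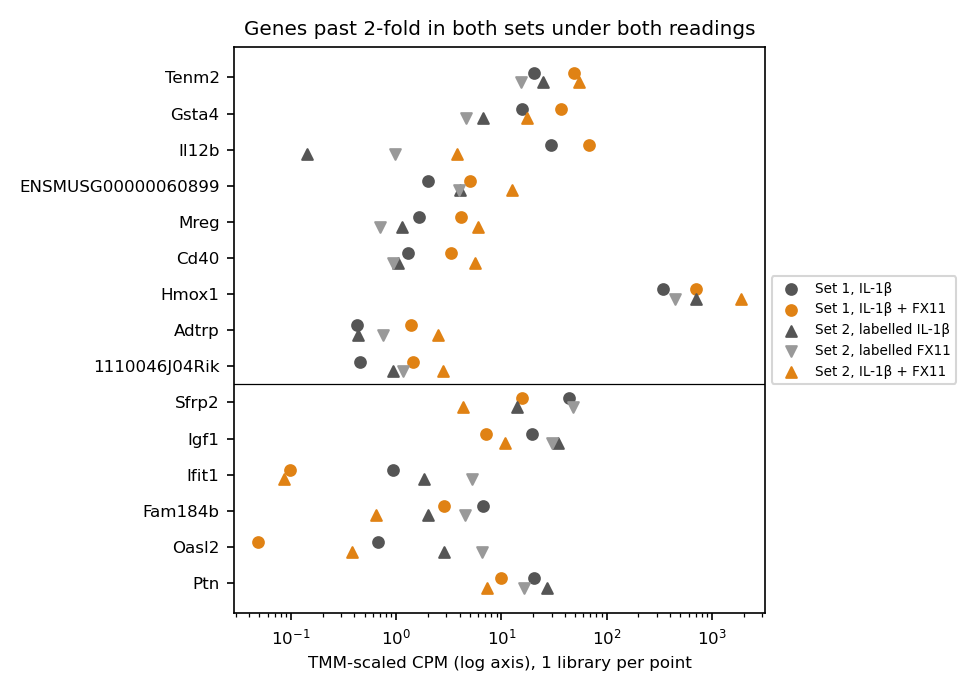
TMM-scaled CPM on a log axis for the 15 genes past 2-fold in the same direction in both sets under both readings, with 1 point per library in each of the 5 libraries. Among the libraries drawn from each set, the 9 genes above the line had their highest value with IL-1β + FX11 and the 6 below it their lowest. This order follows from the rule that chose the genes.

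Il6, acute-phase genes and the osteoclast factor Tnfsf11 were among the 44 genes that were lower only in the exchanged reading. Il6 (ENSMUSG00000025746, chromosome 5, 30013161 to 30019968) stood at 55.8 CPM with IL-1β and 13.6 CPM with IL-1β plus FX11 in set 1, a log2 ratio of -2.0 (95% counting interval -2.17 to -1.90), the lowest of all members in that set. In set 2 it stood at 14.6 CPM in the library labelled FX11 and 4.90 CPM with IL-1β plus FX11, a ratio of -1.49 (-1.89 to -1.27), and no read was counted in the library labelled IL-1β. Of these 44 genes, 27 had a ratio above 0 as labelled and 12 were past 2-fold higher, Il6 among them. Saa1 and Saa2, acute-phase apolipoproteins, had ratios of -1.55 and -1.73 in set 1 and -1.71 and -1.94 in the exchanged reading, and neither had a read in the library labelled IL-1β, so as labelled they were higher with FX11. They are near-identical copies, so the split of reads between them is uncertain. Tnfsf11 (ENSMUSG00000022015, chromosome 14, 78277445 to 78308043), which encodes RANKL, the factor that drives osteoclast formation, stood at 21.9 and 7.57 CPM in set 1 and at 8.71 and 1.36 CPM in the library labelled FX11 and that with both agents, and its ratio as labelled was 0.66.

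Adamts5 (ENSMUSG00000022894, chromosome 16, 85858170 to 85901125), the main aggrecan-cleaving protease of mouse cartilage, stood at 191 and 86.8 CPM in set 1 and at 123 and 59.4 CPM in the exchanged reading, with ratios of -1.13 and -1.05. As labelled its ratio was 0.84, from 33.0 CPM in the library labelled IL-1β. Cxcl14, a chemokine, had ratios of -1.58 in set 1, 1.23 as labelled and -1.28 exchanged, and Cd14, the lipopolysaccharide co-receptor, -1.18, 1.47 and -1.10. Wif1, another secreted Wnt inhibitor, stood at 9.55 and 2.56 CPM in set 1 and at 11.3 and 2.55 CPM in the exchanged reading, with a ratio of 0.27 as labelled. Fndc1 had ratios of -1.4, -0.35 and -1.74. Kininogens (Kng1 and Kng2), serpins (Serpina3g, Serpina3m and Serping1), complement C6, Lrg1, Agt, Selp, Apln, Stc1, Gfra1, Penk and Npas2 were also in this group. Kng1 with Kng2 and Serpina3g with Serpina3m are members of multigene clusters whose reads can be split between copies. The remaining genes included Ehf, Barx2, F13a1, B930036N10Rik, Clca3a1, Pcsk5, Ildr2, Kcnj15, Trp63, Chit1, Klk10, Cbln3, Asic2, Fmo1, Sapcd2, Col3a1, Myh8, Myl1 and Tnnt1. Over all 50 lower genes the set 1 ratios lay between -2.0 and -1.01, and those of the exchanged reading between -3.32 and -1.05.

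The genes higher only in the exchanged reading were 5. Gdf15, a stress-induced cytokine, stood at 16.3 and 34.6 CPM in set 1 and at 18.1 and 86.5 CPM in the library labelled FX11 and that with both agents, while the library labelled IL-1β stood at 69.9 CPM. Pdk4, the kinase that holds back pyruvate entry into the citrate cycle, stood at 1.70 and 4.00 CPM in set 1 and at 1.82 and 9.45 CPM in the exchanged reading, while the library labelled IL-1β stood at 9.80 CPM. Ppef1, Hap1 and Cox6b2 were the others, and Ppef1 rests on 6 counts in the set 1 IL-1β library. Ablim3, Hlf, Ly6c1 and Sox18 were lower only as labelled, each at or below 2.503 CPM in all 5 libraries. At the threshold, 1110046J04Rik with ratios of 1.03 and 1.01 lay just inside in the exchanged reading, and Tm6sf2 with 0.99 and 1.19 just outside.

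The genes that the study named for the IL-1β response and lactate metabolism were mostly lower in the exchanged reading, and Il6 was the one past 2-fold in both sets. Of 14 tested, 13 were lower in both sets in the exchanged reading and 3 as labelled, where 33.5% and 25.9% of all genes were. Mmp3 had log2 ratios of -0.20 in set 1, 9.0 as labelled and -1.62 in the exchanged reading, and Mmp13, the main collagenase of cartilage, -1.08, 3.35 and -0.78. Ldha itself stood at 2070 and 1607 CPM in set 1, a ratio of -0.37, and at 1627 and 864 CPM in the exchanged reading, a ratio of -0.91, while as labelled the ratio was 0.38. In set 1, as labelled and exchanged, the ratios were -0.43, 3.7 and -0.33 for Nfkbiz, -0.15, 5.2 and -1.11 for Ccl2, and -0.43, 1.17 and -0.70 for Adamts4. As labelled these inflammatory genes thus ran the other way. Acan, aggrecan, had -0.11, -1.95 and -0.52, and Col2a1, the cartilage collagen, -0.44, -1.35 and -0.54, so the matrix genes were not higher with FX11 in either set. Of 32 cartilage matrix genes, 25 were lower in both sets under each reading, beside the same 33.5% and 25.9% of all genes. The medians of that list were -0.17 in set 1, -0.99 as labelled and -0.53 exchanged.

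Cell-cycle genes were lower in both sets under either reading. Of 32 tested, 29 were lower in both sets in the exchanged reading and 25 as labelled, where 33.5% and 25.9% of all genes were, and 11 and 6 passed 1.5-fold in both sets, where 2.5% and 0.91% of all genes did. None passed 2-fold in both sets. The medians were -0.46 in set 1, -0.36 as labelled and -1.34 exchanged. Mki67, a marker of cycling cells, had ratios of -0.65, -0.83 and -2.34, Plk1, a mitotic kinase, -0.78, -1.29 and -2.32, and Ccna2, cyclin A2, -0.70, -1.20 and -2.22. With FX11 alone in set 1 the median of the list was -0.60. Genes that p53 raises were higher together, with 17 of 19 higher in both sets in the exchanged reading and 15 as labelled, where 30.2% and 24.9% of all genes were, and medians of 0.40, 0.24 and 0.59. Trp53inp1 had ratios of 0.80, 0.41 and 1.06, and Eda2r 0.66, 0.37 and 1.08. Their median with FX11 alone in set 1 was 0.74.

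Endoplasmic reticulum chaperones of the unfolded protein response were lower in both sets under either reading as well, with 19 of 21 lower in the exchanged reading and 18 as labelled, where 33.5% and 25.9% of all genes were, and medians of -0.41, -0.27 and -0.54. Sdf2l1 had ratios of -0.76, -0.11 and -1.76, and Hspa5, the chaperone BiP, -0.50, -0.37 and -0.54. Genes of the integrated stress response leaned the other way in the exchanged reading only, with 25 of 32 higher in both sets there and 8 as labelled, where 30.2% and 24.9% of all genes were. Slc3a2, the shared subunit of amino acid transporters, had 0.61, 0.13 and 1.31.

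Energy and sterol genes depended on the reading. Of 23 HIF target and regulator genes, 21 were lower in both sets in the exchanged reading and 5 as labelled, where 33.5% and 25.9% of all genes were, with medians of -0.36 in set 1, -0.73 exchanged and 0.26 as labelled. For 24 glycolysis genes the counts were 15 and 1, with medians of -0.28, -0.41 and 0.31, and for 26 cholesterol synthesis genes 20 and 1, with medians of -0.62, -0.36 and 0.67. Pfkp, a phosphofructokinase, had ratios of -0.61 in set 1, 0.19 as labelled and -1.11 exchanged, and Nsdhl, an enzyme of cholesterol synthesis, -0.82, 0.36 and -1.07. The 21 citrate cycle genes and 74 respiratory chain genes had medians between -0.16 and 0.06 in all 3 comparisons, and no gene of these lists passed 1.5-fold in both sets.

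In 5 of 6 inflammatory lists, more members than not were lower in both sets in the exchanged reading, where 33.5% of all genes were, the NF-κB list being the exception. The 15 IL-1β response genes used to check the labels had medians of -0.31, 7.27 and -0.63 in set 1, as labelled and exchanged, with 12 lower in both sets in the exchanged reading. Because these genes served to check the labels, their values in that reading are not independent of the choice of reading. Of 32 matrix proteases and inhibitors 17 were lower in both sets there, of 19 chemokines 12, of 17 cytokines 10, of 25 NF-κB subunits and regulators 12, and of 23 nitric oxide, prostaglandin and acute-phase genes 17. As labelled, where 25.9% of all genes were lower in both sets, the numbers in the same order were 7, 1, 3, 0 and 3. For the 15 IL-1β response genes it was 0. At 1.5-fold, 6, 5, 4, 1 and 5 were lower in both sets in the exchanged reading, where 2.5% of all genes were. As labelled they were 0, 0, 1, 0 and 1, where 0.91% of all genes were. Of 33 IGF, BMP and Wnt ligands and antagonists, 21 were lower in both sets in the exchanged reading and 16 as labelled. Of all genes, 33.5% and 25.9% were. The list holds Igf1, Sfrp2 and Wif1, already described, and its medians were -0.27, -0.34 and -0.52.

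Several metabolic and stress lists stayed near the value of all genes in set 1. The medians there were -0.13 for 15 lactate dehydrogenase and transport genes, 0.04 for 8 pentose phosphate genes, 0.08 for 24 superoxide and peroxide enzymes, -0.03 for 20 heat shock proteins and metallothioneins, 0.01 for 22 NAD genes and 0.17 for 8 aryl hydrocarbon receptor targets. In the exchanged reading they were -0.28, -0.08, -0.24, -0.06, -0.02 and 0.16 in the same order, and as labelled 0.11, 0.49, 0.08, 0.18, 0.08 and 0.97. The lactate list includes Pdk4, the single gene of these lists past 2-fold in both sets in the exchanged reading. As labelled its ratio was -0.05, and no gene of these lists passed 2-fold in both sets.

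**Figure D3:**
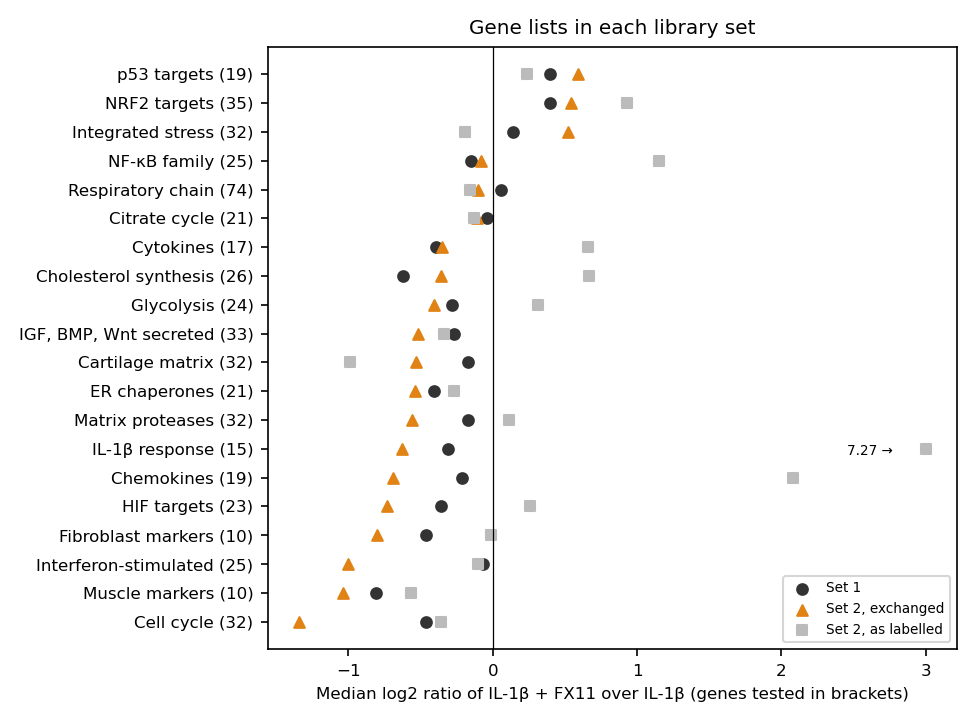
Median log2 ratio of IL-1β + FX11 over IL-1β for 20 gene lists, with the number of genes tested in brackets, in set 1 (circles), set 2 exchanged (triangles) and set 2 as labelled (squares). The NRF2 and p53 lists lie above 0 in all 3. The cell cycle, muscle, endoplasmic reticulum, cartilage matrix, secreted IGF, BMP and Wnt, interferon, citrate cycle and fibroblast lists lie below 0 in all 3. The IL-1β response list lies at 7.27 as labelled, drawn at the edge.

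The summed levels of markers of other cell types differed within these pairs, though single markers did not all follow the sums. Over 10 muscle markers the summed level was 364 CPM with IL-1β and 206 CPM with IL-1β plus FX11 in set 1, and 99.0 CPM in the library labelled FX11, 65.4 CPM in that labelled IL-1β and 37.8 CPM with both agents in set 2. Myh8, Myl1 and Tnnt1, muscle contractile genes, are among the members. Of the 10 markers, 9 were lower in both sets in the exchanged reading and 10 as labelled. Of all genes, 33.5% and 25.9% were. Over 10 fibroblast markers the sums were 7807 and 4876 CPM in set 1, and 7617, 6934 and 4708 CPM in set 2 in the same order. Col3a1, a fibroblast collagen, had ratios of -1.16, -0.32 and -1.35. Over 10 leukocyte markers, Cd14 among them, the sums were 175 and 151 CPM in set 1 and 289, 178 and 155 CPM in set 2. Cd14 alone stood at 38.7 and 16.8 CPM in set 1. The median log2 ratio of the 10 leukocyte markers was -0.05 in set 1, -0.15 as labelled and -0.75 exchanged. The 10 chondrocyte markers summed to 23540 and 18290 CPM in set 1, and to 39990, 74080 and 27710 CPM in set 2, so the labelled cell type was the most abundant of these lists in every library. Osteoblast markers summed to 1548 and 1075 CPM in set 1 and to 3139, 456 and 1295 CPM in set 2. The median log2 ratio of the 6 tested was -0.01 in set 1, -0.66 as labelled and -0.57 exchanged. Of these, 1 was past 1.5-fold higher in both sets under both readings. Endothelial markers summed to at most 15.8 CPM, and erythroid and adipocyte markers to at most 29.9 and 374 CPM. No marker was at 0 in all 5 libraries. In bulk RNA, fewer cells of a type and less RNA per cell cannot be told apart, and the part of these markers in the results was not tested.

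The wild-type libraries were tested with the groups that the labels give, 2 libraries each, and the exchanged grouping, which rests on measured values, was not tested. By edgeR's quasi-likelihood test, 0 of 15461 genes passed an adjusted p of 0.05 (0.0% in either direction) and 102 had an unadjusted p of at most 0.05. limma's voomWithQualityWeights also called 0, with 62 genes at that unadjusted p, and DESeq2 called 1 gene, Fbn2, as lower. With both doubted set 2 libraries left out, edgeR called 0 genes and 117 had an unadjusted p of at most 0.05. A test that passes no gene does not show that the groups did not differ.

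The floxed lines share no library with the wild-type pairs, though they were made in the same library sets, and the 64 genes of the exchanged reading could be tested there. The targeted genes fell under IL-1β with Cre against GFP. Ldha stood at 1560 and 1550 CPM with GFP and at 81.2 and 72.8 CPM with Cre, Nampt at 67.3 and 68.3 against 5.70 and 4.63 CPM, and Nfkbiz at 235 and 229 against 29.4 and 32.3 CPM. No unfloxed culture received the Cre virus, so effects of Cre itself and of losing the gene cannot be told apart in any line. Over 12 floxed libraries with GFP, 6 without and 6 with IL-1β, IL-1β raised 28.0% and lowered 28.3% of all 14283 genes tested. Of the 50 genes lower with FX11, 42 were tested, 26 rose and 8 fell with IL-1β, with a median log2 fold change of 0.71 beside -0.01 over all genes. Il6 rose by 6.44 on the log2 scale (SE 0.15), Saa2 by 6.39 and Tnfsf11 by 2.79. The other 8 did not pass the filter on low values. To agree as lower, a gene had to be well above the pseudocount in the set 1 IL-1β library and the library labelled FX11. Those libraries were high in IL-1β response genes, so the choice favours genes that IL-1β raises. This holds for each floxed comparison below. Of the 14 genes higher with FX11, 7 rose and 4 fell with IL-1β.

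With Nfkbiz deleted, Cre against GFP under IL-1β lowered 9.2% and raised 8.16% of the 15356 genes tested. Of the 43 tested genes that were lower with FX11 in the exchanged reading, 26 fell and 2 rose, with a median log2 fold change of -1.37 beside -0.01 over all genes. The share that fell is not independent of the choice of these genes, which favours genes that IL-1β raises. Of the 5 tested genes that were lower under both readings, 1 fell and 0 rose. Il6 fell by 5.36 (SE 0.25, adjusted p = 1.95e-08, edgeR's quasi-likelihood test), Saa2 by 6.59, Saa1 by 5.12 and Tnfsf11 by 2.44 on the log2 scale. Adamts5 fell by 1.37 (SE 0.14), Cxcl14 by 0.89, Cd14 by 1.89 and Lrg1 by 2.40. Igf1, Sfrp2 and Ptn, which were lower under both readings, had log2 fold changes of 0.17, 0.12 and 0.38 and did not pass the test. Of the 13 tested genes that were higher with FX11, 1 rose and 2 fell, and the latter were Hmox1, which fell by 1.23 (SE 0.11), and Il12b, which fell by 3.24. The second Cre library with IL-1β of this line stood apart, with 0.538% of its counts from mitochondrial genes where the other 3 compared had 1.39% to 1.78%. Without it, 24 of the lower genes fell. Over all genes 2666 passed the test, and 1290 did without the first GFP library with IL-1β and 1410 without the second.

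With Ldha deleted, the same comparison lowered 17.0% and raised 16.9% of 15880 genes. Of 48 tested genes lower with FX11, 18 fell and 7 rose, with a median of -0.64, and of the 14 higher genes, 5 rose and 4 fell. Igf1, Sfrp2 and Ptn fell by 1.38, 1.42 and 1.00 on the log2 scale, Il6 by 2.02 and Adamts5 by 2.20, each with an adjusted p of at most 0.05. Hmox1 and Gsta4, both higher with FX11, fell with Cre by 1.59 and 1.58, while Pdk4, Cd40 and Gdf15 rose by 1.15, 1.62 and 0.58. Without the first GFP library with IL-1β, 3 of the 14 higher genes rose. With Nampt deleted, which encodes the rate-limiting enzyme of NAD salvage, 23.4% of 16136 genes were lowered and 25.0% raised, 17 of 45 tested lower genes fell and 9 rose, and 6 of 14 higher genes rose and 5 fell. Igf1 fell by 2.12, Il6 by 2.85, Hmox1 by 1.88 and Gsta4 by 2.60, each in the direction seen with Ldha deleted. Each line was compared with its own GFP cultures, and whether one line differed from another for these genes was not tested.

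**Figure D4:**
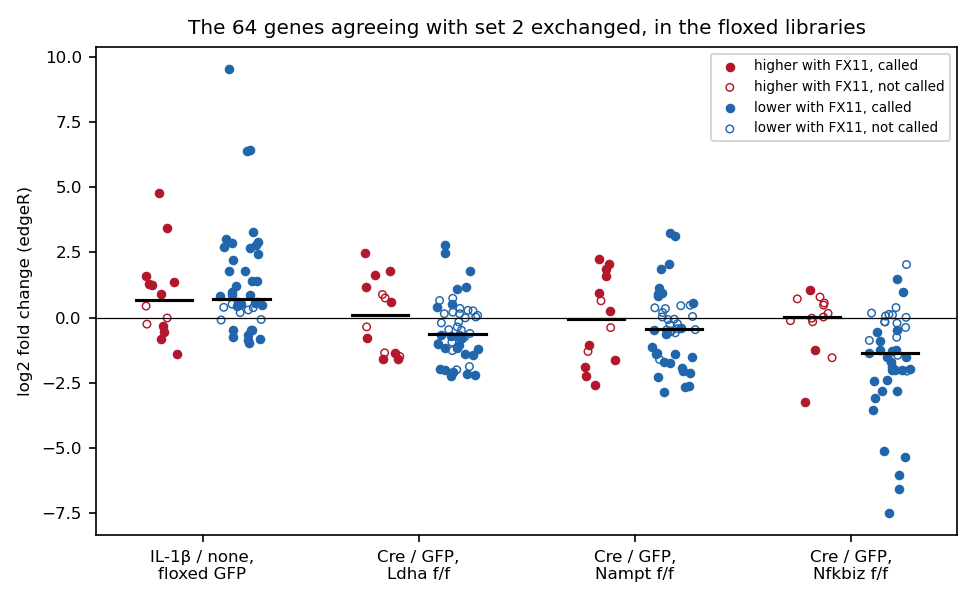
Log2 fold change from edgeR's quasi-likelihood test for the 14 genes higher (red) and 50 lower (blue) with FX11 in the exchanged reading, where tested, with IL-1β in floxed GFP libraries and with Cre against GFP under IL-1β in each line. Filled points passed an adjusted p of 0.05, horizontal bars are medians, and the lower genes have medians of 0.71, -0.64, -0.43 and -1.37 from left to right.

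Other pairs that share no library with those used to choose the 64 genes gave the following. With FX11 against untreated cells in set 1, 11 of the 14 higher genes were higher and 42 of the 50 lower genes were lower, where 50.2% and 49.7% of all genes were, with medians of 0.46 and -0.29. In set 2, the library labelled IL-1β against the untreated one, which shares no library with the exchanged pair, had 12 of the 14 higher and 41 of the 50 lower, where 50.8% and 49.0% of all genes were, with medians of 0.92 and -0.58. Past 2-fold were 3 and 6 of the higher genes in these pairs (0.29% and 0.633% of all genes) and 2 and 13 of the lower genes (0.409% and 1.89%). Hmox1 had a log2 ratio of 1.22 in the latter pair and Igf1 one of -1.20. Sfrp2 had -1.78 there and -0.89 with FX11 in set 1.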

How the data were processed

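Libraries were made from ribosomal RNA-depleted RNA of cultured mouse chondrocytes. According to the submitters' processing notes the reads were aligned to GRCm38 with STAR 2.0.4b and assigned to genes with featureCounts 1.45, while the methods give another STAR version, and the strand setting is not given in the sources used here. The authors deposited for each library a table of counts per gene with CPM and RPKM columns derived from them, and only the counts were used. Gene symbols came from GENCODE M21 and promoters from RefSeq. The members and gene lists were chosen with earlier results of these data known. Within the 8 wild-type libraries, 355 ribosomal RNA genes were left out, and CPM were scaled with TMM factors (edgeR 4.0.16, R 4.3.3). Genes above 1 CPM in any of the 5 libraries were kept, ratios used a pseudocount of 0.5 CPM, and a floor of 3 counts was used. Ratio intervals came from exact binomial intervals (scipy 1.17.1). Groups of 2 were tested by quasi-likelihood in edgeR, with p-values adjusted by Benjamini-Hochberg at 0.05, with DESeq2 1.42.0 and limma 3.58.1 as alternatives, and the steps were tested on simulated data. Nothing in the labels says that libraries of a group came from separate cultures or animals, so p-values measure the spread between these libraries, which may be technical. Replicates were numbered in accession order. Genes were named by a rule, which took up to 12 in each direction under both readings, 8 under the exchanged reading, 5 as labelled, the genes the study names, and up to 6 per list. Other genes were added after their values were seen. Some genes are not reported here.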

Additional observations from a re-analysis of the deposited data

Results flagged for a closer look

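Some genes passed 2-fold in opposite directions in the wild-type library sets when FX11 was added to IL-1β. In the exchanged reading there were 2, Plin1, a lipid droplet protein, with log2 ratios of 1.44 in set 1 and -1.23 in set 2, and Ltf, lactoferrin, with 1.10 and -1.99. As labelled there were 20. With 1 library a group in each set, the difference between the sets was not tested.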

How the results depend on the processing

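The number of genes past the threshold depended on the fold, the pseudocount and the filter. With a pseudocount of 0.1 CPM, 392 genes passed in set 1 in place of 135. With 2 CPM, 42 passed in set 1, 575 of 1027 as labelled and 530 of 1081 exchanged. A filter of 5 CPM left 72 in set 1 and 699 exchanged. At 1.5-fold 1000, 2717 and 2915 passed, and at 3-fold 13, 345 and 288. Of the genes that agreed, pseudocounts of 0.1 and 2 CPM and folds of 1.5 and 3 gave, in that order, 27, 4, 69 and 0 higher and 37, 2, 138 and 0 lower as labelled, 46, 4, 121 and 0 higher and 112, 20, 380 and 2 lower exchanged, and 21, 3, 49 and 0 higher and 27, 2, 108 and 0 lower under both readings. The filter of 5 CPM left 6 lower as labelled, and the choice of reading gave 14 higher and 50 lower exchanged and 6 lower under both. Fewer or more genes follow from the construction of these settings. Of 741 values of named genes under an alternative, 717 kept their direction and side of the threshold, 24 lost the threshold and 0 reversed.

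In wild type, 2 against 2, DESeq2 called 1 gene and edgeR 0, and 0 in each fit that left out a library. Leaving out a library in turn gave 3753 to 3999 genes called with Ldha deleted, 6164 to 6487 with Nampt deleted and 1290 to 3733 with Nfkbiz deleted. A lone library was then assumed to vary like the other groups. Among the agreeing genes the range was 3 to 5 higher genes that rose with Ldha deleted, and with Nfkbiz deleted 1 to 2 higher genes and 1 to 2 lower genes that rose and 20 to 24 lower genes that fell. The replicate numbers come from accession order, and in the wild-type, Ldha and Nampt libraries they coincide with the library sets. A fit with the number as a replicate block called 0 genes in wild type, also with both doubted libraries out, 7120 with Ldha deleted, 9400 with Nampt deleted, 2303 with Nfkbiz deleted and 7796 with IL-1β in the GFP libraries, and moved no count by more than 1.5 times. The correlation of deviations between same-numbered libraries ran from -0.227 to 0.727 in wild type, 0.392 to 0.645 in the Ldha line, 0.418 to 0.571 in the Nampt line and -0.342 to 0.131 in the Nfkbiz line. That fit with both doubted libraries out was added after the data were seen. With 1 library a group, counting error is the only error the ratios carry.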
